A study of Caenorhabditis elegans with 16 samples.

Results

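The genes described here encode the protein subunits of the mitochondrial ribosome in Caenorhabditis elegans. They were chosen by name: every protein-coding gene whose symbol starts with mrpl- (large subunit) or mrps- (small subunit), taken once per gene identifier. The choice gave 66 genes of the 46536 listed and of the 20112 protein-coding ones, 39 of the large and 27 of the small subunit.

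RNA was sequenced from 16 libraries of germline tumor dissected from adults of 1 day, grown at 25 °C for 48 h as synchronised larvae, with 4 libraries at each of 4 times of exposure to 1 mM auxin. The times were 48 h, 4 h, 2 h and a control of 0 h. Every group, controls included, had the Bristol background with gld-2(q497) and gld-1(q485), the glp-1(ar202) allele, the lag-1(oz536oz537) allele and a transgene, ieSi64, with TIR1 and mRuby driven by the gld-1 promoter. GLP-1 is the Notch receptor of the germline and LAG-1 its DNA-binding transcription factor; TIR1 is a plant auxin receptor that directs the breakdown of proteins tagged for it. No group received auxin without the altered lag-1 allele, and the labels do not say what that allele changes. The values were deposited in 2 tables. The first holds the 4 libraries of 48 h, 2 libraries of 2 h and the 4 controls; the second holds the 4 libraries of 4 h and the other two of 2 h. Comparisons were made within a table.

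Mitochondria keep a small genome of their own, and the messages it encodes, all for subunits of the respiratory chain and the ATP synthase, are read by a ribosome found nowhere else in the cell. Its RNAs come from the mitochondrial genome, while all of its proteins are encoded in the nucleus, made in the cytoplasm and imported. Some subunits have counterparts in bacterial ribosomes and others occur only in mitochondria. In mammals a few proteins named as small-subunit members, among them MRPS30 and MRPS18A, sit in the large subunit, so the split used below follows the worm names and not a structure. In C. elegans, knockdown of mrps-5 is known for extending lifespan with activation of the mitochondrial unfolded protein response, and the germline is a tissue rich in mitochondria.

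The genes were all measured well above the detection limit. Library totals were 17760706 to 33888940 reads, and a count of 0 would allow up to 0.169 CPM (a library's reads of a gene after scaling every library to one common total) in the shallowest library. The lowest value of any member in any of the 16 libraries was 9.85 CPM and the highest 181 CPM. Controls 1 and 3 and 48 h library 1 stood apart from the rest of the first table in their ribosomal RNA, which took 53.3%, 51.7% and 44.9% of the reads in genes, against 32.3% to 36.2% in the other 7. In the second table, 4 h library 1 was the highest, with 44.7%. Germline markers were present throughout, with a summed level of 1359.6 to 2962 CPM over 8 genes. The 6 intestinal markers summed to 1.24 to 18.1 CPM at 48 h and 2.37 to 17.8 CPM in controls, overlapping ranges, and to 0.6 to 2.79 CPM in the second table. The highest single values were those of the yolk protein genes vit-6 (up to 12.9 CPM) and vit-2 (up to 4.43 CPM), while the defining genes elt-2 and ifb-2 had no value above 0.211 CPM. Body wall muscle markers summed to 30.6 to 75.2 CPM those of neurons to 19.5 to 44.7 CPM, mostly from snb-1, and those of somatic gonad and sheath to 1.46 to 4.5 CPM. The part of these cells in the results was not tested. Since these are bulk libraries, fewer cells of a type and less RNA per cell cannot be told apart.

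In the genome the 66 genes lay on the 5 autosomes, 14 on chromosome I, 12 on II, 21 on III, 10 on IV and 9 on V, and none on the X, which holds 4.46% of the 7159 protein-coding genes tested with a known length. Their messages were short. The median exon length was 767 bases (309 to 2164), against 1514 bases for tested protein-coding genes, and 62 members were shorter than that. Worm genes are often transcribed together from 1 promoter as operons, in which the next gene follows on the same strand after a short gap. Here 43 members (65.2%) had a coding neighbour on the same strand within 500 bases, overlaps counted, against 49.1% of tested protein-coding genes. A gap of 75 to 125 bases was found for 26 members (39.4%), against 19.2%. Members adjoined each other in 2 places: mrpl-4 and mrps-2 on chromosome V, on the same strand with a gap of 105 bases, and mrpl-1 and mrps-24 on chromosome IV, on opposite strands 343 bases apart. Another coding gene overlaps 19 of the members. They are mrpl-1, mrpl-10, mrpl-12, mrpl-14, mrpl-19, mrpl-24, mrpl-28, mrpl-30, mrpl-34, mrpl-35, mrpl-39, mrpl-53, mrps-11, mrps-15, mrps-16, mrps-18A, mrps-18B, mrps-23 and mrps-35. With the strand setting not given in the sources used here, reads of those 19 could not be assigned to 1 gene with certainty. For mrpl-1, mrps-15, mrps-16 and mrps-18A the gap to a coding neighbour on the same strand was 0 bases, where a strand setting may not part the reads.

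Per kilobase of exon the members formed a narrow band. In controls their mean levels ran between 21.4 and 103 CPM per kb with a median of 59.0, a span of 4.81-fold. All 66 lay above the median tested protein-coding gene (18.3 CPM per kb) and far below the median cytoplasmic ribosomal protein gene (2090 CPM per kb). The small-subunit median was 65.5 CPM per kb and that of the large subunit 57.1. Members with a counterpart in bacteria, assigned by number, had a median of 61.2 and those specific to mitochondria 52.6 CPM per kb.

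At the top stood mrpl-12, whose product forms the flexible stalk that recruits translation factors, with 106 ± 9.51 CPM per kb at 48 h and 103 ± 2.16 in controls (SD, n = 4 each). Next came mrps-5, a protein of the mRNA entry side of the small subunit, with 103 ± 6.08 CPM per kb at 48 h and 97.5 ± 17.1 in controls. The platform protein gene mrps-11 had 91.8 ± 14.8 CPM per kb at 48 h and 93.0 ± 6.42 in controls. These 3 ranges overlapped, so their order is not fixed by the data. The lowest levels were those of mrpl-55 (32.8 ± 1.33 CPM per kb at 48 h, 33.3 ± 2.37 in controls), mrps-10 (29.7 ± 4.86 and 28.2 ± 5.94) and mrps-31 (27.1 ± 1.63 and 21.4 ± 3.68). Of these, mrps-10 encodes a protein of the small subunit's head, and mrpl-55 and mrps-31 were counted as specific to mitochondria by number only. The 3 genes that share the number 18, counterparts of a bacterial platform protein, differed in level. In controls mrps-18B had 91.8 ± 2.47 CPM per kb, mrps-18C 84.5 ± 17.6 and mrps-18A 67.8 ± 7.37. The control ranges of mrps-18B and mrps-18A did not overlap, and that of mrps-18C overlapped both.

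**Figure D1:**
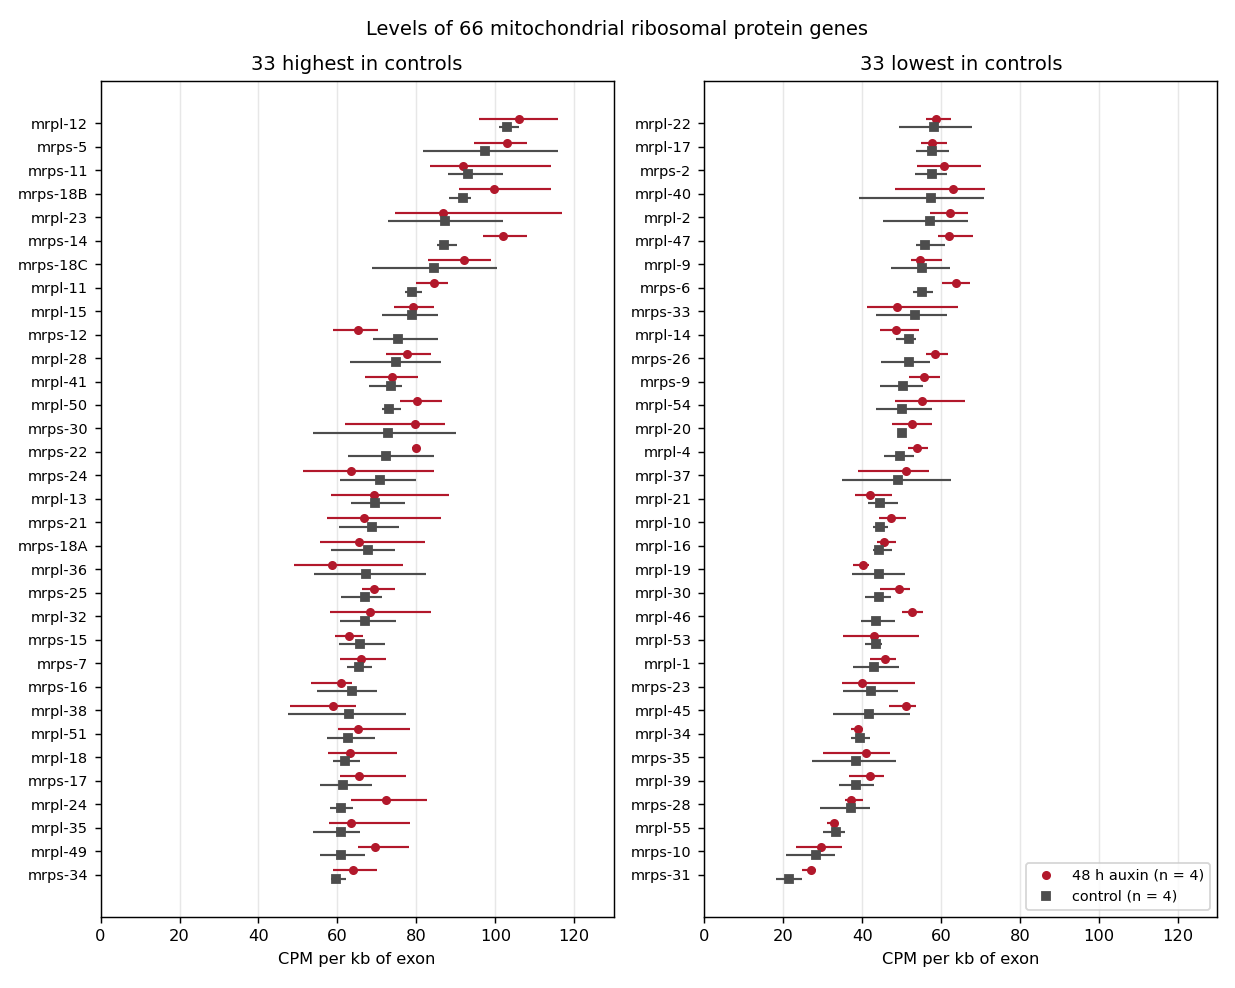
Mean level of each of the 66 genes in CPM per kilobase of exon (points), with lines from the lowest to the highest library, at 48 h of auxin (red circles) above control (grey squares), n = 4 each, ordered by control level. Control means run from 103 for mrpl-12 to 21.4 for mrps-31, and most 48 h and control lines overlap.

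The order of the genes was kept across auxin times. Across the 66 genes, the Spearman correlation of mean per-kb levels was 0.95 for 48 h with controls and 0.97 for 2 h with controls in the first table, and 0.98 for 4 h with 2 h in the second. These are descriptions over genes that share libraries, depth and exon lengths. Within the first table the ratio of a member's highest to its lowest library had a median of 1.37, the smallest being 1.13 for mrpl-34 and the largest 1.82 for mrpl-40. Without controls 1 and 3 and 48 h library 1, that median was 1.19 and the largest 1.39, for mrps-33. In the 6 libraries of the second table the median was 1.14 and the largest 1.34, for mrpl-55.

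As a share of the reads in protein-coding genes, the 66 genes together took 0.746%, 0.581%, 0.581% and 0.554% in 48 h libraries 1 to 4, against 0.766%, 0.573%, 0.748% and 0.598% in controls 1 to 4. The share was 0.633% and 0.581% in the 2 h libraries of the same table. The high values belonged to the 3 libraries with most ribosomal RNA, and the remaining 48 h, 2 h and control libraries lay between 0.554% and 0.633%, with overlapping ranges. Cytoplasmic ribosomal protein genes and mitochondrially encoded protein genes were likewise highest in controls 1 and 3 and in 48 h library 1. Cytoplasmic ones took 18.2% in that 48 h library, 19.6% and 20.4% in those controls and 15.8% to 17.9% in the others, and mitochondrially encoded ones 3.94%, 4.55% and 4.31%, against 2.33% to 3.01%. In the second table the members' share was 0.696%, 0.672%, 0.631% and 0.656% at 4 h, against 0.644% and 0.643% at 2 h, so the 2 h values lay inside the range at 4 h. The part of ribosomal RNA in these shares was not tested. The ratio of small-subunit to large-subunit CPM was 0.82 to 0.875 in the 16 libraries. It was 0.82 in 48 h library 1 and 0.832 and 0.831 in controls 1 and 3, against 0.848 to 0.87 in the rest of the first table. In the second table it was 0.863 to 0.875 at 4 h and 0.859 and 0.861 at 2 h, without overlap. These differences in ratio were not tested.

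**Figure D2:**
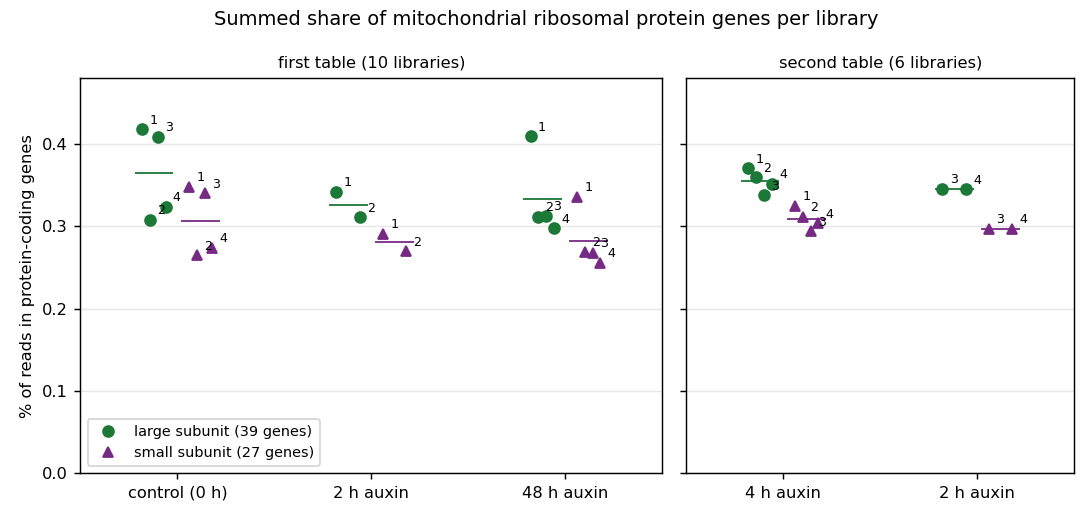
Summed share of the large-subunit (circles) and small-subunit (triangles) genes among reads in protein-coding genes, in percent, for each library by auxin time. Numbers are library numbers and lines are means. Controls 1 and 3 and 48 h library 1 lie above the others in both subunits, and the second table is drawn with 4 h left of 2 h.

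The 4 controls did not vary alike for all members. The log2 ratio of the mean CPM of controls 1 and 3 over that of controls 2 and 4 ran from -0.75 for mrps-35 to 0.46 for mrpl-36, the shortest member. It followed exon length, with a Spearman correlation of -0.75 across the 66 genes, given as a description. Of the 21 members of at least 1000 bases, 20 had a ratio below 0 (median -0.35); of the 45 shorter ones, 26 had a ratio above 0 (median 0.03). Among the short members, mrpl-40 and mrps-10 went with the long ones. In CPM, mrpl-40 had 26.1 and 33.7 in controls 1 and 3 and 46.1 and 47.2 in controls 2 and 4, and mrps-10 had 11.9 and 15.1, against 18.9 and 19. At 48 h, library 1 showed the same split: mrpl-40 had 32.1 CPM there, against 45, 47.4 and 43.0 CPM in libraries 2 to 4, whereas mrpl-23, a short gene whose product lies at the exit of the peptide tunnel, had 66.9 CPM, against 44.2, 45.2 and 42.7.

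**Figure D3:**
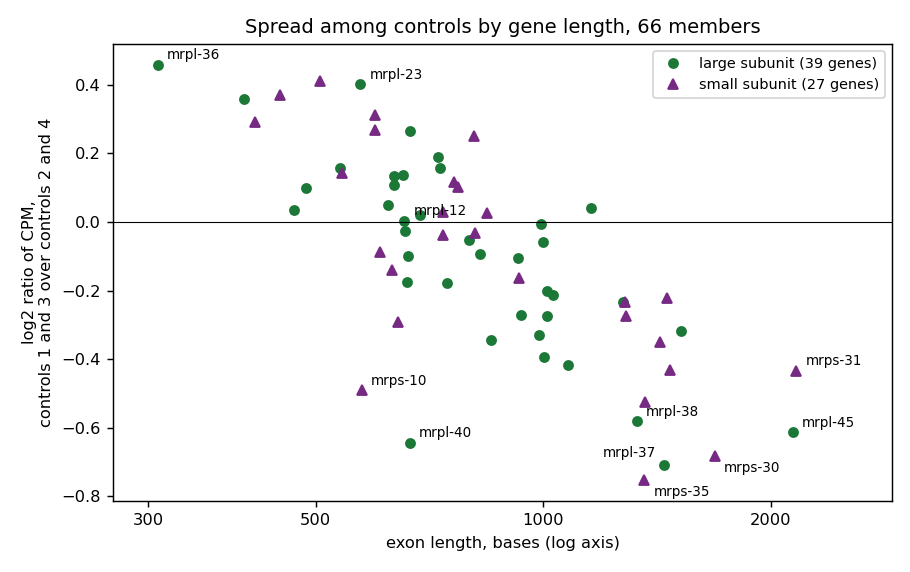
Log2 ratio of the mean CPM of controls 1 and 3 over controls 2 and 4 (vertical) against exon length in bases (horizontal, log axis) for the 66 genes, large subunit as circles and small subunit as triangles. The ratio falls with length, between 0.46 for mrpl-36 and -0.75 for mrps-35, and the short mrpl-40 and mrps-10 lie low.

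The comparison of 48 h with control asks which messages differ after the longest exposure. None of the 66 genes was called by limma's moderated test at an adjusted p of 0.05, where 7.34% of the 7684 genes tested were called higher and 2.71% lower. At an unadjusted p under 0.05 there were 2 of 66 members, both higher, beside 2208 of the 7684 genes; edgeR on recovered reads called 2 lower and DESeq2 3 lower, beside 6.45% and 8.97% of all genes. The members' log2 fold changes, on the log2(CPM + 1) scale, ran from -0.20 to 0.35 with a median of 0.056. The median of all genes tested was 0.24, and 63 of 66 members lay below it. This gap changed with the libraries kept. Without controls 1 and 3 the members' median was 0.023 and that of all genes 0.0098, so the order turned round. Without 48 h library 1 as well, the members' median lay below again, at -0.032 against 0.056. On this deposited scale the 95% interval of the difference stayed within 1.5-fold in either direction for 61 members, and within 2-fold for all 66. Intervals were not counted after centring, where that of mrpl-19 ran from -0.59 to -0.22. Large-subunit and small-subunit medians were 0.048 and 0.081.

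The reading of that comparison depends on the scale. When each library was centred on its median over genes of at least 10 CPM, the all-gene median became -0.041 and the members' median -0.22, and 64 of 66 had a negative value. Then 2 members were called lower and 0 higher, where 7.14% of all genes were lower and 3.74% higher. With the trend on gene length removed as well, 6 were called lower (11.7% of all genes). Leaving out controls 1 and 3 and 48 h library 1 instead gave a member median of -0.032 beside 0.056 for all genes, with 1 member called higher and 2 lower (15.5% and 8.47% of all genes); with centring besides, 4 were lower (12% of all genes).

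The genes mrpl-19 and mrpl-38 were the members called lower under each of these alternatives, and were chosen for description after their values were seen. MRPL19 is the counterpart of a bacterial protein at the contact between the subunits, and MRPL38 is specific to mitochondria, where in mammals it is part of the central protuberance of the large subunit. In 48 h libraries 1 to 4, mrpl-19 had 37.9, 41.5, 41.9 and 39.6 CPM, against 37.4, 49.7, 39.1 and 50.9 CPM in controls 1 to 4. The gene mrpl-38 had 64.1, 80.5, 86.2 and 83 CPM at 48 h, against 63.1, 98.1, 71.4 and 103 CPM in controls. For both genes the groups overlapped, since controls 1 and 3 were as low as the 48 h libraries, while controls 2 and 4 were above all of them. As deposited the log2 fold changes were -0.12 ± 0.13 for mrpl-19 (SE, limma adjusted p = 0.4915) and -0.075 ± 0.18 for mrpl-38 (limma adjusted p = 0.7606). After centring, mrpl-19 was lower by a log2 change of -0.40 (limma adjusted p = 0.01058) and mrpl-38 by -0.36 (0.00678). Both were also called lower with the length trend removed, by edgeR, by DESeq2 and without the 3 libraries, where the values were -0.29 (adjusted p = 0.01284) and -0.27 (0.01431). With only controls 1 and 3 left out, neither was called. The others called lower were mrps-5, mrps-12, mrps-15 and mrpl-9 with the length trend removed, mrpl-22 by DESeq2, and mrps-15 and mrpl-37 with centring and without the 3 libraries. Their log2 fold changes there lay between -0.29 for mrps-15 and -0.16 for mrpl-9.

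At the other end, 3 members had every 48 h library above every control and 0 had every one below, where 14.9% and 3.67% of all genes did so. The first, mrps-14, encodes a protein of the small subunit's head. It had 71.4, 75.5, 79.8 and 73.7 CPM at 48 h, against 66.5, 63.1, 62.9 and 63.8 CPM in controls. On the log2 scale the change was 0.23 ± 0.11 (SE; limma's adjusted p = 0.1878), and it was called higher only without the 3 libraries (0.26, adjusted p = 0.03094); after centring the value was -0.055. The second, mrpl-46, is specific to mitochondria, and had 67.5, 66.6, 70.9 and 64.0 CPM at 48 h, against 50.7, 58.6, 51.7 and 61.7 CPM in controls. Its log2 fold change was 0.27 ± 0.11 (limma adjusted p = 0.1332), with -0.0079 after centring. The third was mrps-6, whose product is a platform protein, with 46.9 ± 2.71 CPM at 48 h and 40.6 ± 1.69 CPM in controls (SD, n = 4 each).

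Of the 4 members given in every comparison, none was called on the deposited scale. The small-subunit gene mrps-5 had 139, 154, 157 and 159 CPM at 48 h, against 125, 158, 120.2 and 171 CPM in controls, with a wider spread in controls. Its log2 fold change was 0.099 ± 0.14 (SE, 95% interval -0.22 to 0.42). For mrps-12, which encodes the protein of the decoding centre, 48 h libraries had 37.2, 34.3, 38.1 and 32.0 CPM and controls 39.4, 37.5, 46.3 and 40.1 CPM. The groups overlapped by a small margin, and the value of -0.20 ± 0.11 (limma's adjusted p = 0.2416) was the most negative of the members. The gene mrpl-2, whose product lies beside the peptidyl transferase centre, had 67.1 ± 4.3 CPM at 48 h and 61.5 ± 10.8 CPM in controls, a log2 fold change of 0.14 (-0.17 to 0.45). For mrpl-12 the values were 69.5 ± 6.23 CPM at 48 h and 67.7 ± 1.41 CPM in controls, a log2 fold change of 0.032 (-0.21 to 0.27).

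Past these, the highest values were those of mrps-31 and mrpl-45, the 2 longest members. For mrps-31 the level was 58.5 ± 3.53 CPM at 48 h and 46.2 ± 7.96 CPM in controls (log2 fold change 0.35, limma adjusted p = 0.1237, the smallest of the members). MRPL45 is, in mammals and yeast, related to the factor that holds the mitochondrial ribosome at the inner membrane; mrpl-45 had 109 ± 6.41 CPM at 48 h and 89.3 ± 21.8 CPM in controls (0.32, adjusted p = 0.2373). The lowest after mrps-12 were 2 short genes, mrpl-36 and mrps-24. They had 18.1 ± 3.89 and 38 ± 8.69 CPM at 48 h, against 20.8 ± 4.01 and 42.4 ± 5.46 CPM in controls, with log2 fold changes of -0.19 and -0.17. In all 4 the control spread followed the split by length described above, with controls 1 and 3 low for the long genes and high for the short ones.

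**Figure D4:**
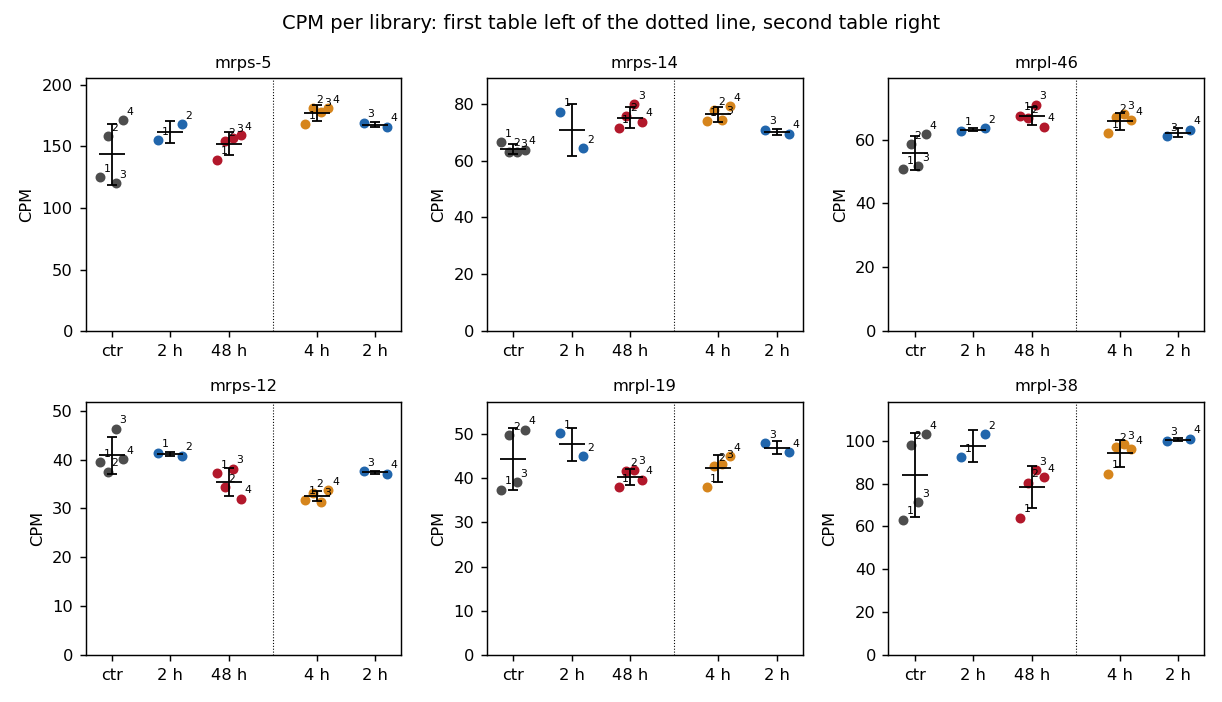
CPM of 6 members in every library, with mean and SD in black and library numbers beside the points: control, 2 h and 48 h of the first table left of the dotted line, and 4 h and 2 h of the second table right of it. For mrpl-38 and mrpl-19, controls 1 and 3 lie as low as the 48 h libraries; for mrps-14 and mrpl-46 all 48 h points lie above all controls.

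The comparison of 2 h with control asks for early differences and has 2 libraries at 2 h. Limma called 0 of 66 members and 0 of all genes tested (0.00% higher and 0.00% lower). No member had an unadjusted p under 0.05 by limma, beside 429 of the 7684 genes, and edgeR and DESeq2 also called 0 members. Over all genes edgeR called 0, and DESeq2 called 19 higher and 5 lower. The members' median log2 fold change was 0.077, against 0.24 for all genes, and 57 were positive. Without controls 1 and 3 the order turned round here too, with 0.030 for the members and 0.016 for all genes. For 58 members the 95% interval stayed within 1.5-fold on the deposited scale. Both 2 h libraries lay above all controls for 5 members (mrpl-17, mrpl-46, mrps-18B, mrps-31 and mrps-9) and below them for 0, where 17.8% and 0.976% of all genes did so. After centring the members' median was -0.22, and 0.016 with controls 1 and 3 and 48 h library 1 left out as well.

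Among the members given in every comparison, mrps-5 had 155 and 168 CPM at 2 h, inside its control range of 120.2 to 171 CPM, and mrpl-2 had 68 and 69.4 CPM, inside 48.8 to 71.9. The gene mrps-12 had 41.4 and 40.8 CPM, inside 37.5 to 46.3 CPM in controls. Only mrpl-12 reached beyond its controls, with 72.7 and 66.1 CPM at 2 h, against 66 to 69.3 CPM. The highest values belonged to long genes, mrps-30 with 149 ± 9.55 CPM at 2 h (n = 2) and 123 ± 33.1 CPM in controls (n = 4), mrps-31 with 55.7 ± 1.53 and 46.2 ± 7.96 CPM, and mrpl-37 with 82.9 ± 6.55 CPM and a control range of 50.6 to 90.6 CPM. Their log2 fold changes were 0.31, 0.28 and 0.26. The lowest were mrps-21 at -0.15, mrps-23 at -0.11 and mrpl-49 at -0.082. Without controls 1 and 3, mrps-30 had a value of -0.027 and mrpl-37 one of -0.089.

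Between 48 h and 2 h the members again gave 0 calls of 66, where 0.872% of all genes were called higher and 1.98% lower. Neither direction had a member with an unadjusted p under 0.05 by limma, beside 914 of the 7684 genes. By edgeR 0 members were called, beside 103 of all genes higher and 276 lower. DESeq2 called mrpl-38 lower (log2 fold change -0.31, adjusted p = 0.003731), beside 4.72% of all genes. The members' median was -0.016 and that of all genes -0.017. For 59 members the interval stayed within 1.5-fold on the deposited scale. This comparison involves the 48 h library with high ribosomal RNA but no control. Without it and controls 1 and 3, which feed the estimate of spread, 6 members were called lower (mrpl-14, mrpl-23, mrpl-36, mrpl-38, mrps-11 and mrps-24), where 8.89% of all genes were, and 10 with centring besides (11.6%). The members' median was then -0.039, against 0.045 for all genes, and -0.076, against 0.0077, with centring besides.

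The groups did not overlap for 7 members that were lower at 48 h than at 2 h (mrpl-17, mrpl-19, mrpl-28, mrpl-38, mrps-12, mrps-15 and mrps-16) and for 2 that were higher (mrpl-46 and mrpl-49). The background was 14.8% of all genes lower and 12.5% higher. At 48 h, mrpl-38 had 64.1, 80.5, 86.2 and 83 CPM, against 92.4 and 103 CPM at 2 h, which is -0.32 ± 0.22 on the log2 scale (SE; limma's adjusted p = 0.7881). For mrpl-19 the 48 h values of 37.9 to 41.9 CPM stood below 50.2 and 45 CPM at 2 h (-0.24 ± 0.16, adjusted p = 0.768). For mrps-12 those of 32.0 to 38.1 CPM stood below 41.4 and 40.8 CPM (-0.21 ± 0.13, adjusted p = 0.7195). The most positive were mrpl-49 (45.4 ± 3.89 CPM at 48 h and 37.5 ± 2.31 CPM at 2 h, log2 fold change 0.27), mrpl-24 (72.0 ± 8.1 and 61.4 ± 4.43 CPM, 0.22) and mrpl-54 (22.2 ± 3.1 and 20.3 ± 3.93 CPM, 0.13). The log2 fold changes of mrps-5, mrpl-2 and mrpl-12 were -0.082, -0.035 and -0.0019.

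The second table compares 4 h with 2 h. The members' median SE on the log2 scale was 0.076 there, against 0.12 for 48 h with control. Limma called 0 of 66 members, where 0.178% of the 7301 genes tested were called higher and 0.205% lower. At an unadjusted p under 0.05 there were 2 of 66 members, both lower, beside 1133 of the 7301 genes. No member was called by edgeR, which called 112 genes higher and 121 lower, or by DESeq2, which called 150 higher and 184 lower. The median was -0.041, against -0.072 for all genes, with 48 negative values and 18 positive ones. The 95% interval stayed within 1.5-fold for all 66 on the deposited scale. After centring, the members' median was 0.041, so the sign of this median depends on the scale.

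The groups did not overlap for 9 members lower at 4 h (mrpl-9, mrpl-16, mrpl-19, mrpl-38, mrps-6, mrps-12, mrps-15, mrps-16 and mrps-28) and for 5 higher (mrpl-2, mrpl-13, mrpl-17, mrps-14 and mrps-22), beside 24% and 6.16% of all genes. The most negative was mrps-12, with 31.8, 33.2, 31.4 and 33.7 CPM at 4 h, against 37.6 and 37.1 CPM at 2 h. All 4 h values lay below both of 2 h, and the value was -0.19 ± 0.075 (SE; limma's adjusted p = 0.2708, the smallest of the members). It was followed by mrps-28 (18.1 ± 1.04 CPM at 4 h and 20.6 ± 0.277 CPM at 2 h, -0.18) and mrpl-34 (20.4 ± 2.34 and 23.1 ± 0.354 CPM, -0.18). The most positive was mrps-14, with 73.8, 77.6, 74.4 and 79.0 CPM at 4 h, against 70.9 and 69.4 CPM at 2 h (0.12 ± 0.069, adjusted p = 0.4142). Next came mrpl-13 (53.9 ± 2.95 CPM at 4 h and 49.6 ± 0.124 CPM at 2 h, 0.12) and mrps-22 (126 ± 4.92 and 117 ± 2.94 CPM, 0.11). With the length trend removed, mrps-14 (0.20, adjusted p = 0.03852) and mrpl-2 (0.18, adjusted p = 0.04306) were called higher, where 2.14% of all genes were. The log2 fold changes of mrps-5 and mrpl-12 were 0.078 and -0.014.

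Those 2 tables have no library in common, so the 48 h and the 4 h libraries could each be set against their own 2 h libraries. Of the 7 members lower at 48 h and the 9 lower at 4 h without overlap, 5 were on both lists: mrpl-19, mrpl-38, mrps-12, mrps-15 and mrps-16. Over the 7240 genes tested in both tables, 329 (4.54%) were on both such lists, 30.1% of the 1093 lower at 48 h and 18.8% of the 1752 lower at 4 h. None of the members that were higher as deposited was on both lists, and mrpl-17 was lower at 48 h and higher at 4 h. After centring, 6 members were lower at 48 h and 3 at 4 h without overlap and 0 were on both lists, beside 244 of all genes (3.37%). On that scale 1 member, mrps-31, was higher in both tables, beside 319 of all genes (4.41%). Which members were shared thus changed with the scale.

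**Figure D5:**
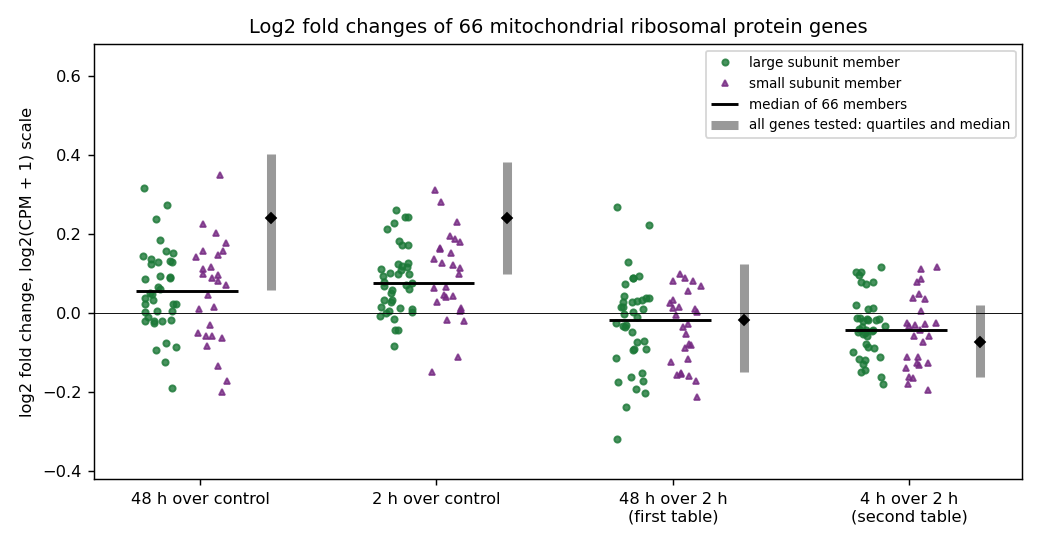
Log2 fold changes of the 66 genes on the log2(CPM + 1) scale in 4 comparisons, large subunit as circles and small subunit as triangles, with the members' median as a black line. Grey bars and diamonds give the quartiles and the median of all genes tested. Against control the members' medians (0.056 and 0.077) lie below the all-gene medians of 0.24. Without controls 1 and 3 that order turns round (0.023 and 0.030, against 0.0098 and 0.016). With 48 h library 1 left out too, the members' 48 h median lies below again (-0.032, against 0.056). In the comparisons with 2 h the members' medians as deposited lie near those of all genes. Without controls 1 and 3 and 48 h library 1, the members' median for 48 h over 2 h was -0.039, against 0.045 for all genes.

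Other genes of mitochondrial gene expression were read from lists made for this purpose. The mitochondrially encoded proteins, which this ribosome makes, had 0 of 12 called at 48 h against control, with a median log2 fold change of -0.22 (-0.31 to 0.083), and 0 of 12 in each other comparison. After centring the median was -0.50 (-0.59 to -0.20), also with 0 called. Their share of protein-coding reads was 4.55% and 4.31% in controls 1 and 3, and 2.62% and 2.69% in controls 2 and 4. At 48 h it was 3.94%, 2.47%, 2.57% and 2.33% in libraries 1 to 4. The part of controls 1 and 3 in that median was not tested. The 2 mitochondrial ribosomal RNAs were not called either, with -0.16 and -0.018 at 48 h against control. Of the 21 tested factors of mitochondrial translation, such as synthetases and elongation factors, 1 was called higher at 48 h against control. Of all genes tested, 7.34% were. The factor called was rars-2, a mitochondrial arginyl-tRNA synthetase, with 48.6 ± 1.55 CPM at 48 h and 35 ± 5.44 CPM in controls (SD, n = 4 each, log2 fold change 0.47, limma adjusted p = 0.03878). It was not called after centring. The median of the 21 was 0.21, near that of all genes, and -0.074 after centring. The gene dap-3, which encodes a GTP-binding protein of the small subunit named outside the mrps- series, had a log2 fold change of 0.21 ± 0.13 (SE; adjusted p = 0.2935). Of 5 tested genes for mitochondrial DNA and RNA upkeep, 0 were called in any of the 4 comparisons.

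Genes of mitochondrial stress and protein quality control gave 0 of 15 called at 48 h against control, with a median of 0.24, as for all genes, and -0.043 after centring. The mitochondrial chaperone gene hsp-6, a usual readout of the mitochondrial unfolded protein response, had 424 ± 115 CPM at 48 h and 318 ± 145 CPM in controls (log2 fold change 0.49 ± 0.34 SE, limma adjusted p = 0.3301). Its partner hsp-60 had 799 ± 162 CPM at 48 h and 605 ± 231 CPM in controls (0.46, adjusted p = 0.2705). Cytoplasmic ribosomal protein genes had 0 of 80 called at 48 h against control, with a median of 0.10, or -0.18 after centring, close to the members' -0.22 on that scale. After centring 1 of the 80, rpl-11.2, was called lower (-0.96 ± 0.16 SE, limma adjusted p = 0.004203). For 4 h against 2 h the same gene was the only 1 of 79 called, and it was higher. Its log2 fold change was 1.08 as deposited and 1.16 after centring. Of all genes tested, 0.178% were called higher there as deposited.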

How the data were processed

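The authors deposited 2 tables of a signal per gene, named CPM; edgeR, limma, featureCounts 1.4.5, Subread and STAR 2.0.4b are named, per the submitters' processing notes. Build, annotation and strand setting were not given in the sources used here. Repeated lines of a gene were reduced to 1. Every deposited value was a whole multiple of 1 read (100% of values, tolerance 0.1 read), so whole read counts were recovered. On those counts edgeR called 392 genes higher and 496 lower at 48 h against control. Each comparison was tested with limma 3.58.1 (R 4.3.3, trended variance) on log2(CPM + 1), 2-sided, and adjusted by Benjamini-Hochberg to a threshold of 0.05 over genes with at least 2 libraries of 1 CPM. This scale understates changes of low genes. Alternatives were edgeR 4.0.16, DESeq2 1.42.0, pseudocounts of 0.5 and 0.1, other filters, median centring, removal of a length trend, a replicate block and leaving out libraries. Lengths, coordinates and neighbours came from the Ensembl WBcel235 annotation, not stated to be the authors' build. It held 46363 of the 46536 gene IDs.

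All 16 libraries were kept apart: libraries of one group differed by more than counting noise (lowest chi-square per degree of freedom 4.0). The series states biological replicates without saying how they were collected, so p-values reflect only the spread seen among the deposited libraries. Floors from a count of 0 (3 reads) cover counting error only. The named members are mrps-5, mrps-12, mrpl-2 and mrpl-12 in every comparison, called members or otherwise the 3 highest and 3 lowest fold changes, the 3 highest and 3 lowest levels per kb, and members sharing a number. Others are named where groups did not overlap or an alternative called them. The members, lists and rules were chosen with earlier results of these data known. Scripts were tested on simulated data. The planted changes there were larger than any of the members' and no length split between libraries was simulated. That test therefore does not cover changes of the members' size.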

Additional observations from a re-analysis of the deposited data

Results flagged for a closer look

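Among 102 sets of 4 libraries examined (29 named members and the summed shares), 8 had 1 library far from the other 3. Chance flags about 1 in 20 independent sets. These sets share libraries and members, so the count cannot be weighed against that rate. In 6 of the 8 the far library was 48 h library 1, where ribosomal RNA took 44.9% of reads in genes. There mrps-11 had 86.9 CPM (others 63.6 to 65.3), mrps-23 had 23.9 CPM (15.7 to 16.4) and mrps-30 had 104 CPM, below all the others, which reached 147. The members' share of protein-coding reads was 0.746% (0.554% to 0.581%), made up of 0.41% for the large subunit (0.298% to 0.313%) and 0.336% for the small one (0.256% to 0.269%). At 4 h, mrpl-38 had 84.6 CPM in library 1 (96.0 to 98.3), the library with most ribosomal RNA of that table, and mrpl-24 had 61.5 CPM in library 3 (67.2 to 68.2). The part of ribosomal RNA in these values was not tested.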

How the results depend on the processing

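For 2 h against control no alternative called a member, and none called more than 21 of all genes higher or 5 lower. For 48 h against control, with 0 members called as deposited, 2 were lower under centring, 6 with the length trend removed, 2 by edgeR, 3 by DESeq2, 2 (with 1 higher) without controls 1 and 3 and 48 h library 1, and 4 with centring and without those 3 libraries, an alternative chosen after seeing the data. The median log2 fold change was 0.056 as deposited, -0.23 by edgeR, -0.22 under centring and by DESeq2, -0.082 with the length trend removed, -0.032 without the 3 libraries and -0.083 with centring as well. For 2 h against control it was 0.077 as deposited, -0.22 under centring and by DESeq2, -0.23 by edgeR and -0.063 with the length trend removed. Without controls 1 and 3 it was 0.030. With centring and without the 3 libraries it was 0.016, beside 0.0013 for all genes. For 48 h against 2 h, 1 member was lower by DESeq2, 6 without the 3 libraries and 10 with centring as well. There the members' median of -0.016 became -0.039 without the 3 libraries and -0.076 with centring as well. For 4 h against 2 h, 2 were higher with the length trend removed, and the median of -0.041 became 0.041 under centring, 0.040 with the length trend removed and 0.037 by edgeR and by DESeq2. The cause was not tested. Pseudocounts and filters called no member, beside 319 to 542 of all genes higher and 64 to 212 lower for 48 h against control. Leaving out each library in turn called 0 members in every comparison. Over all genes those fits called 207 to 865 higher and 126 to 232 lower for 48 h against control, and 0 for 2 h against control. They called 9 to 57 higher and 30 to 122 lower for 48 h against 2 h, and 3 to 31 and 1 to 206 for 4 h against 2 h. The members' medians then ranged from 0.025 to 0.080 for 48 h against control, 0.020 to 0.142 for 2 h against control, -0.066 to 0.028 for 48 h against 2 h and -0.057 to -0.019 for 4 h against 2 h. 

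Whether replicate numbers pair the libraries was not settled. Same-numbered libraries of the first table correlated between -0.55 and 0.79 over 8 pairs, the others between -0.84 and 0.78 over 24. Among the 8, only control 3 with 48 h library 3 was negative. In the second table same-numbered libraries gave 0.03 and 0.19, and the others -0.19 to 0.16 over 6 pairs. In a group of 2 libraries the deviations mirror each other, and the libraries with high ribosomal RNA also enter, so these values cannot decide it. With the replicate block 0 members were called in all 4 comparisons. Over all genes the block gave 834 higher and 249 lower at 48 h against control (564 and 208 without it), and 283 higher and 361 lower at 4 h against 2 h (13 and 15 without it).

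Of 40 named member values, none called as deposited, 18 changed sign under some alternative beside leaving out single libraries. Under centring they were, for 48 h against control, mrps-5 -0.18, mrpl-2 -0.14, mrpl-12 -0.25, mrpl-46 -0.0079 and mrps-14 -0.055, for 2 h against control mrps-5 -0.11, mrps-12 -0.28, mrpl-2 -0.12, mrpl-12 -0.26, mrps-31 -0.014 and mrpl-37 -0.034, and mrpl-12 0.012 for 48 h and 0.068 for 4 h against 2 h. With the length trend removed they were, for 48 h against control, mrps-5 -0.17, mrpl-2 -0.052, mrpl-12 -0.060 and mrpl-45 -0.028, for 2 h against control mrps-5 -0.094, mrps-12 -0.053, mrpl-2 -0.020, mrpl-12 -0.061, mrps-31 -0.085 and mrpl-37 -0.0096, and mrpl-12 0.00021 for 48 h and 0.069 for 4 h against 2 h. By edgeR they were, for 48 h against control, mrps-5 -0.17, mrpl-2 -0.13, mrpl-12 -0.25 and mrps-14 -0.070, for 2 h against control mrps-5 -0.10, mrps-12 -0.31, mrpl-2 -0.11, mrpl-12 -0.27 and mrpl-37 -0.022, and mrpl-12 0.021 for 48 h and 0.065 for 4 h against 2 h. By DESeq2 they were, for 48 h against control, mrps-5 -0.17, mrpl-2 -0.13, mrpl-12 -0.25 and mrps-14 -0.066, for 2 h against control mrps-5 -0.10, mrps-12 -0.30, mrpl-2 -0.10, mrpl-12 -0.27 and mrpl-37 -0.018, and mrpl-12 0.018 for 48 h and 0.066 for 4 h against 2 h. Without controls 1 and 3 they were, for 48 h against control, mrps-5 -0.11, mrpl-2 -0.069 and mrpl-36 0.028, and for 2 h against control mrps-5 -0.032, mrpl-2 -0.034, mrps-30 -0.027, mrpl-37 -0.089 and mrps-23 0.066. Leaving out 48 h library 1 too gave the same values at 2 h, mrps-5 -0.072, mrpl-2 -0.031 and mrpl-12 -0.012 for 48 h against control, and mrpl-2 0.0031 for 48 h against 2 h. With centring as well they were, for 48 h against control, mrps-5 -0.12, mrpl-2 -0.082 and mrpl-12 -0.063, and for 2 h against control mrps-5 -0.047, mrpl-2 -0.049, mrps-30 -0.041, mrpl-37 -0.10 and mrps-23 0.052. The block gave mrpl-12 0.0083 for 48 h against 2 h. Leaving out single libraries, sign changes fell in these ranges: for 48 h against control mrpl-12 -0.014 to 0.078 and mrpl-38 -0.20 to 0.032, for 2 h against control mrps-12 -0.026 to 0.073 and mrpl-12 -0.033 to 0.10, for 48 h against 2 h mrpl-2 -0.070 to 0.0031, mrpl-12 -0.069 to 0.065 and mrpl-54 -0.060 to 0.32, and for 4 h against 2 h mrpl-12 -0.026 to 0.00084. Differences well under 1.5-fold lie within the members' intervals at 2 to 4 libraries a group.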
